A study of Homo sapiens with 12 samples.

Results

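A set of 38 genes of glycolysis and of the hypoxia response was described in HK-2 cells exposed to 3 nephrotoxic drugs. Its members were the rows of the deposited count table whose gene name equalled 1 of 38 listed symbols, and all 38 were found among its 58735 genes. The list holds 17 glycolytic enzymes, 2 regulators of glycolytic flux, 4 glucose or lactate transporters, 2 genes of the pyruvate dehydrogenase step, 2 alpha subunits of the hypoxia-inducible factor (HIF), 2 HIF prolyl hydroxylases and 9 other genes known to be induced by low oxygen. HK-2 is an established line of immortalized human renal proximal tubular epithelial cells, and every group used this 1 line. The control group received H2O. The iohexol group received iohexol, an iodinated contrast medium, at 75 mg I/mL for 48 h. The cisplatin group received cisplatin, a platinum drug used against tumours, at 5 μM for 48 h. The vancomycin group received vancomycin, a glycopeptide antibiotic, at 4 mM for 48 h. Poly-T selected mRNA was sequenced in 12 samples, 3 per group, and the question was which genes each drug up-regulated or down-regulated relative to the control group.

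Glycolysis splits glucose into pyruvate in a chain of enzyme steps that runs from hexokinase to pyruvate kinase, and lactate dehydrogenase then reduces pyruvate to lactate, which leaves the cell through monocarboxylate transporters. The alpha subunits of HIF are hydroxylated by the EGLN prolyl hydroxylases and degraded while oxygen is present, and when they accumulate they pair with a beta subunit and bind short promoter elements of genes for glucose transport, glycolysis, pH control, vessel growth and mitophagy. Proximal tubule cells of the kidney are known for burning fatty acids and for making glucose rather than for using it, and cultured lines of this cell are known to rely more on glycolysis.

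Total counts ran from 14057282 to 18177109 per sample. A floor of 3 counts was worth 0.165 to 0.213 counts per 1000000 (CPM) of the unscaled total count of a sample. For the CPM values below, the total count of a sample was first scaled by edgeR's TMM factor. These factors were 0.961 to 0.976 in control, 1.02 to 1.04 in iohexol, 1.12 to 1.13 in cisplatin and 0.885 to 0.897 in vancomycin samples, so the scaling itself differed between groups. Replicates were compared before use by the chi-square statistic of their counts over genes per degree of freedom. It was 17.5 and 16.5 for iohexol replicate 3 against the other iohexol samples and 3.82 between those 2. Control replicate 1 stood off from its group by less (8.03 and 10.8, against 3.24), the vancomycin pairs gave 6.24 to 13.1, and the cisplatin pairs 2.34 to 2.66. The methods say that assay conditions were repeated but not whether the 3 samples of a group were separate cultures, so p-values measure only the spread between these samples, which may be technical. CPM values are shares of a library, and in such bulk samples fewer cells of a type and less RNA per cell cannot be told apart.

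The labelled cell type was checked against 13 proximal tubule markers. GGT1, a brush-border enzyme, was the most abundant of them in every group, and the summed level of the list was 232 to 274 CPM in control samples, 238 to 269.8 CPM in iohexol, 194 to 212 CPM in cisplatin and 451 to 479 CPM in vancomycin samples. Beneath this sum, MME (0.70 on the log2 scale), ANPEP (1.75) and CUBN (1.48) rose with iohexol, where GGT1 was at -0.34 (adjusted p = 0.136). CUBN rested on 9, 15 and 8 counts in control and 30, 26 and 33 in iohexol samples. With cisplatin MME (-1.10) and ANPEP (-1.57, on 3, 8 and 13 counts) fell and GGT1 was at -0.16 (adjusted p = 0.104). With vancomycin GGT1 (0.89) and MME (0.53) rose. AQP1 held 5, 3 and 4 counts in control and 15, 14 and 13 in vancomycin samples. It passed the filter on low counts only through the vancomycin samples, so no fold is given for it. The endocytic receptor LRP2 and the organic anion transporters SLC22A6 and SLC22A8, which define the tubule segment in the kidney, stayed under 3 counts in every sample of the control, iohexol and cisplatin groups. The 6 epithelial markers, led by KRT8 except in iohexol samples, where PAX8 led, summed to 1092 to 1237 CPM in control, 1160 to 1418 CPM in iohexol, 1360 to 1414 CPM in cisplatin and 1654 to 1713 CPM in vancomycin samples. Their members went opposite ways. With cisplatin the keratins KRT8 (0.77 on the log2 scale), KRT18 (0.90) and KRT19 (0.32) rose while EPCAM (-1.51) and PAX8 (-1.50) fell. With vancomycin the same keratins rose while EPCAM fell (-0.44). With iohexol PAX8 rose (0.75) and KRT18 fell (-0.42). The 4 fibroblast markers, led by LUM, summed to 115 to 129 CPM in control, 106 to 116 CPM in iohexol, 105 to 109 CPM in cisplatin and 241 to 277 CPM in vancomycin samples. All 4 rose with vancomycin, whereas with cisplatin DCN (-2.19) and LUM (-0.55) fell and COL1A1 (0.66) and PDGFRB (1.15) rose. PDGFRB held only 10, 8 and 9 counts in control, 30, 16 and 21 in cisplatin and 18, 19 and 27 in vancomycin samples. With iohexol DCN fell (-0.96). The part of these shifts in the results below was not tested. The 3 immune markers PTPRC, CD68 and CD3E were at or near 0 in every group, with a summed level of at most 0.405 CPM in a sample. The 3 endothelial markers summed to at most 4.21 CPM in a sample. Of these PECAM1 rose with iohexol (1.54 on the log2 scale) and was called lower with vancomycin, where it held 3, 0 and 1 counts against 21, 16 and 22 in control samples.

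The markers above were ranked within their lists by CPM, without regard to length. Levels of different members were compared only per length, as CPM per kilobase of deposited gene length (RPKM, mean ± SD, n = 3). In control cells GAPDH was the most abundant member, at 930.4 ± 36.2 RPKM. It was followed by ENO1 at 641 ± 18.8 and PGAM1 at 458 ± 22.1 RPKM, and each of these 3 levels lay clear of the next in all samples. LDHA, TPI1 and PKM came next at 286 ± 13, 272 ± 43.1 and 269 ± 18.8 RPKM and overlapped with each other. Among the regulators, HIF1A stood ninth at 111 ± 11.9 RPKM, overlapping with PFKP, and EPAS1 was close behind at 81.9 ± 3.57 RPKM. At the low end were CA9 at 1.03 ± 0.239, ALDOA at 0.891 ± 0.132 and ALDOC at 0.349 ± 0.0869 RPKM, although ALDOA is usually an abundant aldolase. The deposited ALDOA model shares 53.5% of its exon bases with overlapping genes, mainly AC093512.2 on the same strand, and 67.1% of its 31-base words occur in other genes, so its level is uncertain. AC093512.2 itself was listed at 2.05 ± 0.0810 CPM in control and 2.64 ± 0.197 CPM in vancomycin samples.

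The letters that HIF is known to bind were looked for in the promoters, since many members moved together. The motif searched was ACGTG or GCGTG on both strands, where the palindrome CACGTG holds ACGTG on each strand. RefSeq promoters on GRCh38.p14, each 250 bases before to 50 bases after a transcription start, were matched for 33 of the 38 members, and 31 of these held the motif in at least 1 promoter. Some members have several promoters, and the matching count per gene was not made over all genes. Over all 35116 promoters of that length 48.4% held it and 21.4% held ACGTG, against 68.3% and 38.3% of the 60 promoters of members. The 4 stretches that follow are of 250 bases each and end just before a RefSeq start. They are given 5′ to 3′ on the strand of the gene. The 4 genes are examples not ranked by change, and each stretch shown holds the motif. ALDOA, which moved further than LDHA or BNIP3 with vancomycin, also has promoters with the motif and is not shown. The matched promoters of EGLN3 and PGAM1, which held no motif, are not shown. Another matched promoter of LDHA, at chr11:18396101-18396400, held GCGTG in 1 place and is not shown. Capitals mark the motif on either strand, and a match describes letters and is not a binding site. The deposited gene models of LDHA, CA9, ADM and BNIP3 begin further upstream than these RefSeq starts.
LDHA, chr11:18394313-18394562 (+ strand), a glycolytic enzyme with the motif in 3 places: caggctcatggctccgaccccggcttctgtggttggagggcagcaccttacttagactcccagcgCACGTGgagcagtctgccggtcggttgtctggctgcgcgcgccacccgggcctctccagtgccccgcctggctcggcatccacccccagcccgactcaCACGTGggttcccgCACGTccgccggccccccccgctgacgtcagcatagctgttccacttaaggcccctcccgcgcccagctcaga
BNIP3, chr10:131981924-131982173 (- strand), a mitophagy receptor with the motif in 5 places: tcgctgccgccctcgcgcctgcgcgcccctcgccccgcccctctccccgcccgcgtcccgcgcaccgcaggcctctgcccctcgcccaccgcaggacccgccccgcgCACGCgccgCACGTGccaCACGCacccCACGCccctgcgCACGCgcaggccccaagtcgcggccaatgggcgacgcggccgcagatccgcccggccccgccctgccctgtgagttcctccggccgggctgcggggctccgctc
CA9, chr9:35673678-35673927 (+ strand), a carbonic anhydrase with the motif in 1 place: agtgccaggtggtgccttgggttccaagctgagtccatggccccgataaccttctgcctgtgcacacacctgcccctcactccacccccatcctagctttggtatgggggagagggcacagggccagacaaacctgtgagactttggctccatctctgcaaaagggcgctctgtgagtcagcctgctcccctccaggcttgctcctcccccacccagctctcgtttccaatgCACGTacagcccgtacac
ADM, chr11:10304823-10305072 (+ strand), the adrenomedullin gene with the motif in 1 place: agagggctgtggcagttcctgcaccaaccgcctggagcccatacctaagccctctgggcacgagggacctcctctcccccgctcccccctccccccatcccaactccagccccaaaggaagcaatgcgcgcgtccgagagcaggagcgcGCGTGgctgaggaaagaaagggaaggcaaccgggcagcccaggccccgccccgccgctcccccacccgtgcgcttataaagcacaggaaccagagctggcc

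The 3 drugs moved the 38 genes in different ways, and each drug was compared with the same 3 control samples. With iohexol 4 members rose, 10 fell and 24 did not pass the test (edgeR quasi-likelihood test, Benjamini-Hochberg adjusted p under 0.05 over all genes tested), beside 11.2% of 15657 genes called higher and 9.77% called lower. With cisplatin 5 members rose, 29 fell and 4 did not pass, beside 29.2% and 30.6% of 15876 genes. With vancomycin 21 members rose, 6 fell and 11 did not pass, beside 29% and 28.8% of 15819 genes. All 38 members passed the filter on low counts in each comparison. CA9 did so only through the control samples with cisplatin and lacked 1 iohexol sample over it. Without CA9 the counts were 4 higher and 9 lower with iohexol and 5 higher and 28 lower with cisplatin, with medians of -0.15 and -0.72 on the log2 scale. The median log2 fold change over all 38 was -0.16 with iohexol, -0.73 with cisplatin and 0.32 with vancomycin, against 0.01, 0.01 and -0.01 over all genes tested.

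**Figure D1:**
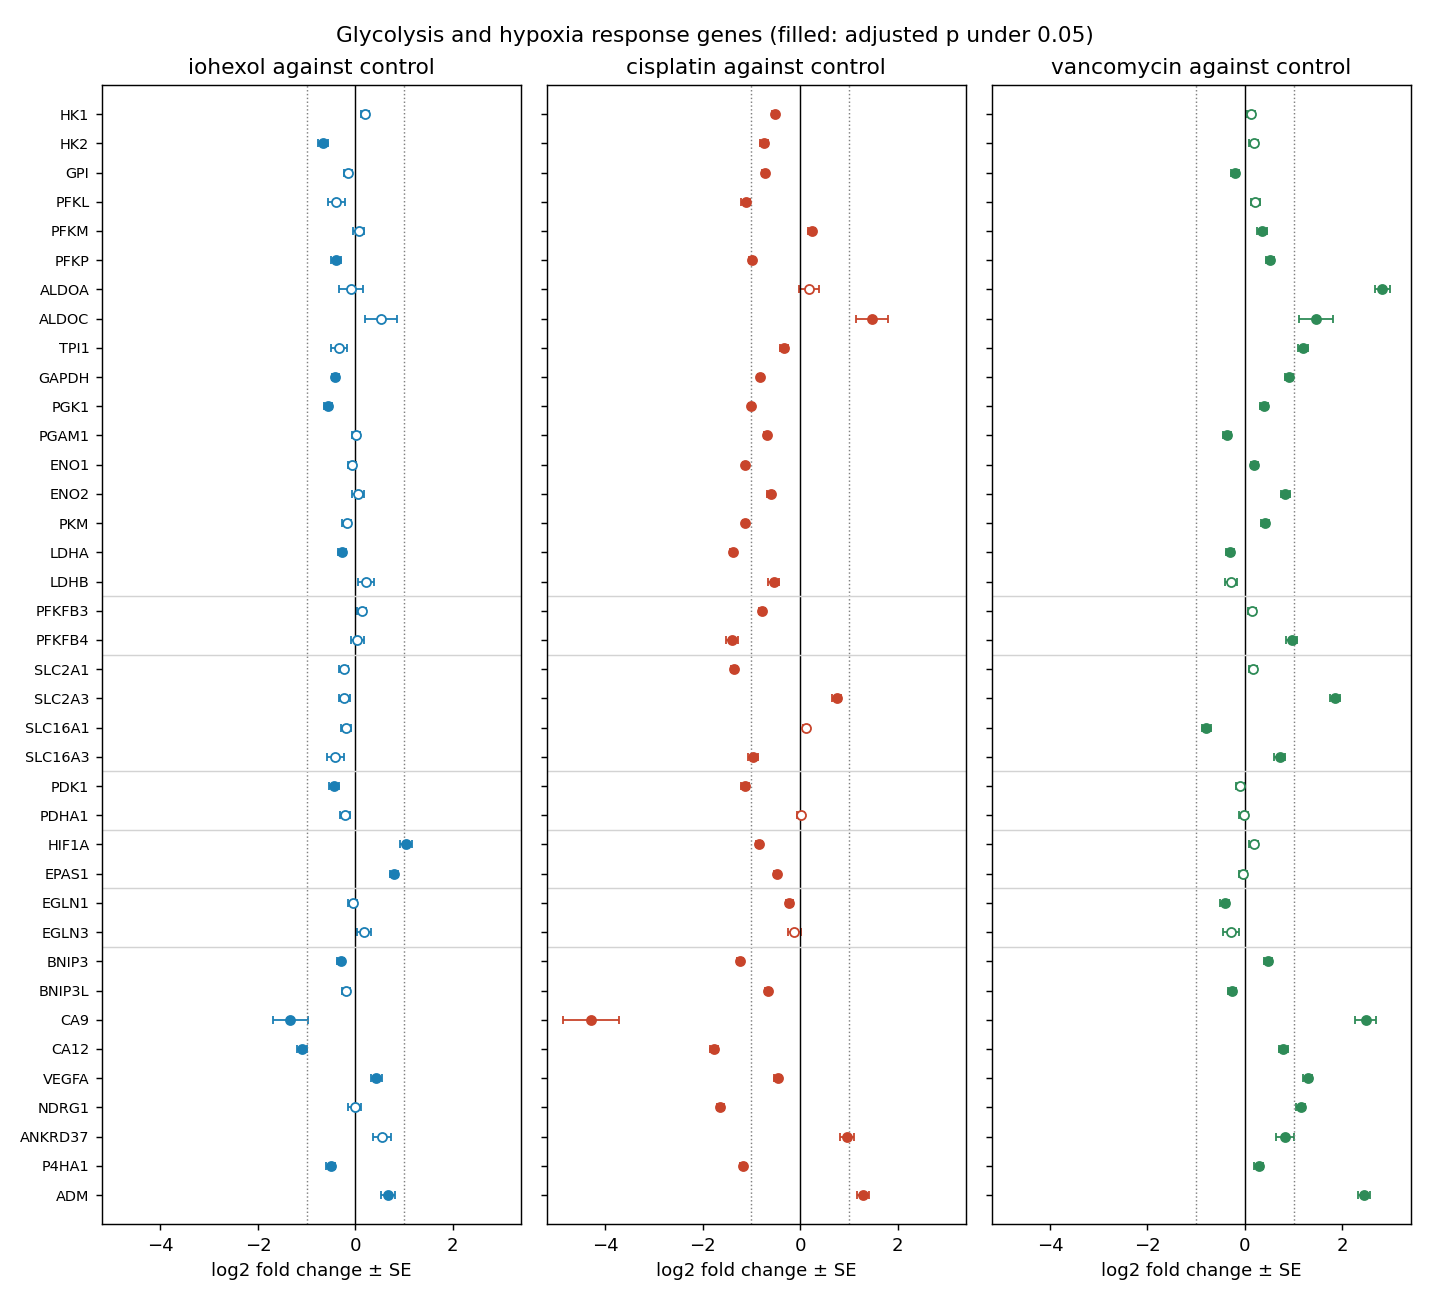
Log2 fold change ± SE of each of the 38 genes against control (x axis) for iohexol, cisplatin and vancomycin, grouped by role from the glycolytic enzymes at the top to the other hypoxia-induced genes at the bottom; filled points have an adjusted p under 0.05 and dotted lines mark a change of 1. Of the 38 points, 29 lie filled on the left for cisplatin and 21 filled on the right for vancomycin.

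Under the further threshold of a log2 fold change past 1, 1 member was up-regulated by iohexol (HIF1A) and 2 were down-regulated (CA9 and CA12), beside 4.02% and 1.25% of all genes. For cisplatin the numbers were 2 up-regulated (ALDOC and ADM) and 12 down-regulated members (11 without CA9), beside 7.62% and 8.72%. Vancomycin up-regulated 8 members past this threshold and down-regulated 0, beside 10.8% and 7.65%, and 6 members were called lower at smaller folds. The samples of drug and control did not overlap for 22 members with iohexol, 35 with cisplatin and 33 with vancomycin, beside 37.9%, 65.1% and 63.2% of all genes. When counts were scaled by the total count alone, all genes together had a median log2 change of 0.08 with iohexol, 0.23 with cisplatin and -0.08 with vancomycin, and the members called became 6 higher and 9 lower, 7 higher and 27 lower, and 19 higher and 7 lower. The share of calls that were higher then went from 28.6% to 40% of the called members for iohexol, while over all genes it went from 53.4% to 67.5% for iohexol and from 48.9% to 68.1% for cisplatin. The iohexol count moved most of the 3 when 1 sample was left out. It became 3 higher and 6 lower without control replicate 2 and likewise without iohexol replicate 2, and 6 higher and 11 lower without iohexol replicate 3, the sample that stood apart.

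Both HIF alpha subunits rose with iohexol and fell with cisplatin, and neither passed the test with vancomycin. HIF1A (chr14:61695513-61748259), the oxygen-labile alpha subunit found in most cells, had 644, 535 and 539.6 CPM in control samples and 1086, 1010.4 and 1396 CPM in iohexol samples. The cisplatin samples had 331, 317 and 312 CPM and the vancomycin samples 735, 657 and 616 CPM. Every iohexol sample was above and every cisplatin sample below all controls, whereas the vancomycin samples overlapped with them. The log2 fold change was 1.04 ± 0.12 (SE, adjusted p = 9.59e-05) with iohexol, -0.84 ± 0.07 (SE, adjusted p = 1.46e-08) with cisplatin and 0.18 ± 0.09 (SE, adjusted p = 0.103) with vancomycin. The iohexol value dropped under the threshold of 1 without iohexol replicate 3, its highest sample (0.89), and without control replicate 2 or 3 (0.98 each), and the call at adjusted p under 0.05 held. Without control replicate 1 the vancomycin value was 0.27 with an adjusted p of 0.0128.

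EPAS1 (chr2:46293667-46386703), the paralogous alpha subunit, moved the same way. It had 569, 618 and 608 CPM in control, 1031, 1102 and 954 CPM in iohexol, 446, 428 and 415 CPM in cisplatin and 623, 559 and 619 CPM in vancomycin samples. Iohexol samples were all higher and cisplatin samples all lower than the controls, with log2 fold changes of 0.80 ± 0.08 (SE, adjusted p = 4.3e-05) and -0.48 ± 0.06 (SE, adjusted p = 8.91e-07), and the vancomycin value was -0.04 (adjusted p = 0.731). The prolyl hydroxylase EGLN1, which marks the alpha subunits for degradation, had 188, 165 and 169 CPM in control samples and fell with vancomycin to 139.9, 139.7 and 124 CPM, a log2 fold change of -0.41 ± 0.09 (SE, adjusted p = 0.000373). With cisplatin its log2 fold change was -0.22 ± 0.06 (SE, adjusted p = 0.00777), a fall of which nothing was left (adjusted p = 0.999) when counts were scaled by the total count alone. EGLN3, a hydroxylase that is itself known to be hypoxia-induced, stayed between 6.78 and 10.4 CPM over all 12 samples and passed the test with none of the drugs against control.

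Down the glycolytic chain, most enzymes fell with cisplatin and more rose than fell with vancomycin. Of the 17 enzymes, 0 rose and 5 fell with iohexol (HK2, PFKP, GAPDH, PGK1 and LDHA), 2 rose and 14 fell with cisplatin, and 10 rose and 3 fell with vancomycin (GPI, PGAM1 and LDHA). Over all genes tested 11.2% were called higher and 9.77% lower with iohexol, 29.2% and 30.6% with cisplatin, and 29% and 28.8% with vancomycin. The enzymes called lower with vancomycin made up 17.6% of the 17. The summed counts of all 17 enzymes made up 1.41%, 1.51% and 1.5% of all counts in control samples. The share was 1.41%, 1.37% and 1.22% in iohexol, 0.882%, 0.894% and 0.902% in cisplatin, and 1.82%, 1.84% and 1.85% in vancomycin samples. The cisplatin samples were all below and the vancomycin samples all above the controls. The iohexol samples were also below the controls, the nearest pair by less than the digits shown, and iohexol replicate 3 was the lowest of its group. In summed CPM the group means were 15222 ± 575 in control, 12961 ± 886 in iohexol, 7935 ± 98.5 in cisplatin and 20600.0 ± 308 in vancomycin samples (SD, n = 3). GAPDH alone gave 18.2% to 18.3% of the enzyme counts in control samples and 25.5% to 26.4% in vancomycin samples.

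**Figure D2:**
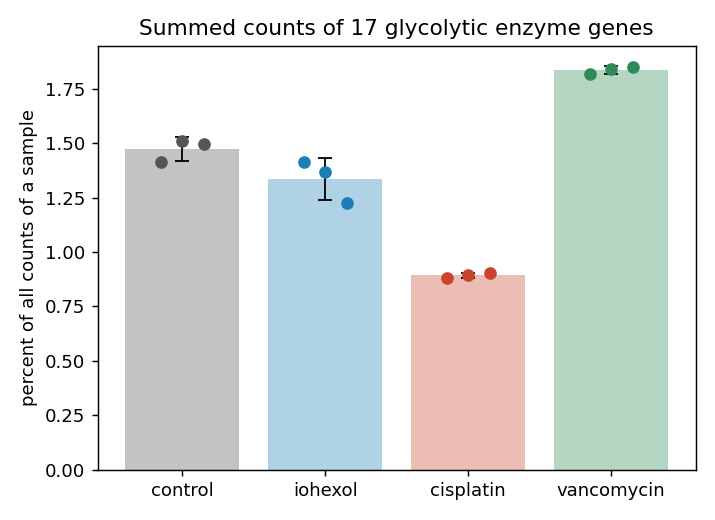
Summed counts of the 17 glycolytic enzyme genes as percent of all counts of a sample (y axis) in the 4 groups; points are samples, bars the group mean and error bars the SD (n = 3). Cisplatin samples sit near 0.893% and vancomycin samples near 1.84%, on either side of the control mean of 1.47%.

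The hexokinases trap glucose in the cell as glucose 6-phosphate. HK2, the inducible form, had 105, 121 and 124 CPM in control samples, 69, 80.7 and 67.7 CPM in iohexol, 73.1, 68 and 68.5 CPM in cisplatin and 140.5, 125 and 143 CPM in vancomycin samples. Iohexol and cisplatin samples were below all controls, at log2 fold changes of -0.67 ± 0.11 (SE, adjusted p = 0.00091) and -0.74 ± 0.07 (SE, adjusted p = 1.44e-07). The vancomycin value was 0.18 (adjusted p = 0.0943), and 0.25 without vancomycin replicate 2, where it passed the test. HK1, the form found in most tissues, had a log2 fold change of 0.19 (adjusted p = 0.112) with iohexol, called without iohexol replicate 3 (0.23). The log2 ratio of HK2 to HK1 counts was -1.58 ± 0.0628 in control and -2.44 ± 0.134 in iohexol samples (SD, n = 3), which all lay below the controls. With cisplatin HK1 fell along with HK2, at -0.52 on the log2 scale. The ratio was then -1.80 ± 0.0633, also below all controls, while the vancomycin samples, at -1.52 ± 0.0382, overlapped with them. Of the phosphofructokinases, which commit the sugar to glycolysis, the liver form PFKL fell with cisplatin from 116, 151 and 156 CPM to 65.3, 63.3 and 67.1 CPM, at a log2 fold change of -1.11 ± 0.09 (SE, adjusted p = 1.08e-08), as did the platelet form PFKP, at -0.99 ± 0.06 (SE, adjusted p = 3.27e-10). The muscle form PFKM went the other way with cisplatin, at 0.23 (adjusted p = 0.0164). With vancomycin PFKM (log2 fold change 0.35, adjusted p = 0.00293) and PFKP (log2 fold change 0.51, adjusted p = 2.18e-05) both rose, and PFKL was at 0.22 (adjusted p = 0.0676). The cisplatin value of PFKM was 0.20 without cisplatin replicate 2, with an adjusted p of 0.0863, and 0.14 without control replicate 1.

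The middle of the pathway held the enzymes with the largest rise with vancomycin. ALDOA, the main aldolase of most tissues, had 3.99, 3.51 and 2.96 CPM in control, 2.76, 4.09 and 2.81 CPM in iohexol, 4.18, 4.25 and 3.43 CPM in cisplatin and 26.8, 24.1 and 24.9 CPM in vancomycin samples. Only the vancomycin samples stood clear of the controls, with a log2 fold change of 2.82 ± 0.16 (SE, adjusted p = 2.25e-13), and the doubt about the reads given to ALDOA holds for this value too. ALDOC, the brain form, was at the low end of the range, with 46 counts over the 3 control samples, 142 over the cisplatin and 137 over the vancomycin samples. Its log2 fold changes were 1.47 ± 0.33 (SE, adjusted p = 0.00089) with cisplatin and 1.46 ± 0.35 (SE, adjusted p = 0.000909) with vancomycin.

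TPI1, the triose phosphate isomerase, had 601, 812 and 791 CPM in control samples and 1625, 1830.4 and 1739.9 CPM in vancomycin samples. All vancomycin samples exceeded all controls, a log2 fold change of 1.19 ± 0.10 (SE, adjusted p = 3.13e-10). The cisplatin samples had 565, 596 and 599 CPM, and the log2 fold change of -0.32 ± 0.08 (SE, adjusted p = 0.00239) became -0.11 (adjusted p = 0.274) when counts were scaled by the total count alone. GAPDH (chr12:6533927-6538374), which makes the first NADH of the pathway and is often used as a reference gene, had 2654, 2863 and 2804 CPM in control, 2151, 2080.4 and 1939 CPM in iohexol, 1558, 1567 and 1609 CPM in cisplatin and 5338, 5314 and 5409 CPM in vancomycin samples. Its 4 groups did not overlap with each other. The log2 fold changes were -0.41 (adjusted p = 0.00227) with iohexol, -0.81 (adjusted p = 1.2e-10) with cisplatin and 0.91 (adjusted p = 6.07e-10) with vancomycin. Other genes share 35.2% of the 31-base words of GAPDH and 31% of those of TPI1, led by the pseudogenes GAPDHP1 and TPI1P1 with 2234 and 2050 counts of their own over all 12 samples.

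PGK1, the first enzyme of the chain that yields ATP, had 1176, 1208 and 1155 CPM in control, 808, 798 and 761 CPM in iohexol, 572, 589.9 and 611 CPM in cisplatin and 1480.1, 1679.9 and 1610.2 CPM in vancomycin samples. It fell with iohexol (log2 fold change -0.56 ± 0.07 SE, adjusted p = 0.000242) and cisplatin (log2 fold change -1.0 ± 0.05 SE, adjusted p = 2.43e-11) and rose with vancomycin (log2 fold change 0.39 ± 0.08 SE, adjusted p = 0.000249), and no drug sample overlapped with the controls. The enolase ENO1 had 3308, 3496 and 3349 CPM in control and 1524, 1559 and 1545 CPM in cisplatin samples, a log2 fold change of -1.13 ± 0.05 (SE, adjusted p = 1.25e-12). With vancomycin it was 0.20 (adjusted p = 0.0312), and this call was lost without control replicate 1 (0.18), control replicate 2 (0.21), control replicate 3 (0.18) or vancomycin replicate 3 (0.21), and when counts were scaled by the total count alone (0.12). ENO2, the neuronal form and a known HIF target, fell with cisplatin (log2 fold change -0.60) and rose with vancomycin (log2 fold change 0.83). PKM, the pyruvate kinase, had 2122, 2412 and 2387 CPM in control, 1051, 1064 and 1054 CPM in cisplatin and 3162, 3099 and 3219 CPM in vancomycin samples, with log2 fold changes of -1.13 ± 0.05 (SE, adjusted p = 8.2e-12) and 0.41 ± 0.08 (SE, adjusted p = 0.000125). PGAM1, the phosphoglycerate mutase, fell with cisplatin (log2 fold change -0.69) and with vancomycin (log2 fold change -0.36), and 47.4% of its 31-base words occur in other genes. GPI, which turns glucose 6-phosphate into fructose 6-phosphate, fell with cisplatin (log2 fold change -0.72), and its vancomycin value of -0.20 (adjusted p = 0.0414) missed the threshold without control replicate 2 (-0.19) or 3 (-0.21) and without vancomycin replicate 1 (-0.19), 2 (-0.17) or 3 (-0.23).

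LDHA, the lactate dehydrogenase subunit whose promoter is printed above, was lower in every drug group. It had 1863, 1764 and 1704 CPM in control, 1474, 1374 and 1517 CPM in iohexol, 677, 684 and 685 CPM in cisplatin and 1455, 1555 and 1427 CPM in vancomycin samples, and none of the drug samples reached the control range. The log2 fold changes were -0.27 ± 0.08 (SE, adjusted p = 0.0251), -1.38 ± 0.05 (SE, adjusted p = 5.31e-13) and -0.31 ± 0.08 (SE, adjusted p = 0.00227) in that order. The iohexol call was lost without control replicate 1 (-0.24), control replicate 2 (-0.29) or iohexol replicate 2 (-0.24), and when counts were scaled by the total count alone (-0.20). LDHB, the subunit that favours the way back to pyruvate, fell with cisplatin (log2 fold change -0.55), and 33.4% of its exon bases overlap with another gene, AC010197.2, that held 20 counts in all. The log2 ratio of LDHA to LDHB was 4.92 ± 0.208 in control, 4.43 ± 0.266 in iohexol, 4.07 ± 0.147 in cisplatin and 4.89 ± 0.215 in vancomycin samples (SD, n = 3).

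The 2 regulators make and remove the sugar phosphate that activates phosphofructokinase. PFKFB4 had 28.6, 31.4 and 35.1 CPM in control, 12.3, 9.79 and 13.9 CPM in cisplatin and 60.8, 62.8 and 67 CPM in vancomycin samples. Cisplatin samples were all below and vancomycin samples all above the controls, at log2 fold changes of -1.40 ± 0.13 (SE, adjusted p = 3.87e-08) and 0.96 ± 0.11 (SE, adjusted p = 4.08e-08), and the iohexol samples overlapped with the controls. PFKFB3, the form with the stronger kinase activity, fell with cisplatin (log2 fold change -0.78, adjusted p = 1.13e-08), and its vancomycin value was 0.14 (adjusted p = 0.157).

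The transporters did not move as 1 group. SLC2A1, the basal glucose transporter GLUT1 (chr1:42925375-42959176), had 685, 782 and 793 CPM in control, 649, 679 and 559.8 CPM in iohexol, 289, 297 and 299 CPM in cisplatin and 845, 845 and 929 CPM in vancomycin samples. The cisplatin samples stood far below the others, at -1.35 ± 0.06 (SE, adjusted p = 4.26e-12), while the values for iohexol (log2 fold change -0.24, adjusted p = 0.0977) and vancomycin (log2 fold change 0.17, adjusted p = 0.0918) did not pass the test. SLC2A3, the high-affinity glucose transporter GLUT3, had 27.8, 25.5 and 29.9 CPM in control, 50.2, 46.5 and 43.2 CPM in cisplatin and 99.4, 108 and 101 CPM in vancomycin samples. It rose with both, at log2 fold changes of 0.75 ± 0.09 (SE, adjusted p = 1.7e-06) and 1.85 ± 0.10 (SE, adjusted p = 1.68e-13). Part of its sequence is shared, 25.3% of its 31-base words with SLC2A14, which held 120 counts in all. The lactate exporter SLC16A3 fell with cisplatin (log2 fold change -0.97 ± 0.11 SE, adjusted p = 6.16e-07) and rose with vancomycin (log2 fold change 0.71 ± 0.11 SE, adjusted p = 8.27e-06), and SLC16A1, which carries lactate in either direction, fell with vancomycin from 275, 250.2 and 239 CPM to 159.9, 155 and 139 CPM (log2 fold change -0.79 ± 0.09 SE, adjusted p = 7.16e-08).

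At the entry to the mitochondrion, PDK1, the kinase that switches off pyruvate dehydrogenase, had 65.8, 65.1 and 62.6 CPM in control, 41.9, 45.8 and 53.4 CPM in iohexol, 31.9, 30.3 and 26.8 CPM in cisplatin and 68.5, 60.4 and 58 CPM in vancomycin samples. It fell with iohexol (log2 fold change -0.44 ± 0.11 SE, adjusted p = 0.0126) and with cisplatin (log2 fold change -1.12 ± 0.08 SE, adjusted p = 3e-09). The iohexol call was lost without control replicate 2 (-0.45), iohexol replicate 1 (-0.37) or iohexol replicate 2 (-0.42). PDHA1, the catalytic subunit of the dehydrogenase, passed the test with none of the drugs against control, at -0.21, 0.01 and -0.03 with iohexol, cisplatin and vancomycin.

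The other hypoxia-induced genes included the member with the largest difference with iohexol, CA9, which held only 30 counts over the iohexol samples. With vancomycin the member with the largest difference was the glycolytic enzyme ALDOA, whose level is uncertain because of shared sequence. With cisplatin CA9 held too few counts for its fold to be ranked. Of the 9 other hypoxia-induced genes, 2 rose and 4 fell with iohexol, 2 rose and 7 fell with cisplatin, and 8 rose and 1 fell with vancomycin. Without CA9, whose low counts are given below, 3 of 8 fell with iohexol, 6 of 8 fell with cisplatin and 7 of 8 rose with vancomycin. These counts stand beside 11.2% of all genes called higher and 9.77% called lower with iohexol, 29.2% and 30.6% with cisplatin, and 29% and 28.8% with vancomycin. CA9 (chr9:35673856-35681159), a membrane carbonic anhydrase that acidifies the surroundings of hypoxic cells, had 1.52, 1.44 and 2.17 CPM in control, 0.760, 0.512 and 0.735 CPM in iohexol, 0.121, 0 and 0.118 CPM in cisplatin and 9.45, 10.5 and 9.73 CPM in vancomycin samples. The groups did not overlap with the controls, and the cisplatin samples lay under the floor of 3 counts, with 4 counts in all 3 together against 77 in control and 464 in vancomycin samples. The ratio of control to cisplatin was 21.3, with an exact 95% interval of 7.99 to 80.1 that covers counting error only. In this comparison CA9 passed the filter on low counts through the control samples alone, with 0 of 3 cisplatin samples over it. For that reason no p-value is given for it. With iohexol 2 of 3 drug samples were over it. The log2 fold change was -1.33 ± 0.36 (SE, adjusted p = 0.0205) with iohexol and 2.48 ± 0.21 (SE, adjusted p = 6.97e-10) with vancomycin. The iohexol call was lost without control replicate 3 (-1.14) or iohexol replicate 2 (-1.18). Some 38.5% of the exon bases of CA9 are also those of ARHGEF39 on the opposite strand, which held 6.65 ± 1.23 CPM in control, 7.80 ± 0.352 CPM in cisplatin and 6.13 ± 1.47 CPM in vancomycin samples.

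CA12, a second membrane carbonic anhydrase (chr15:63321378-63382161), showed the same order at a higher level per length, 9.08 ± 0.637 RPKM in control cells. It had 62.6, 65 and 71.6 CPM in control, 29.9, 29.4 and 32.6 CPM in iohexol, 19.2, 21.4 and 18 CPM in cisplatin and 118, 117 and 119.8 CPM in vancomycin samples, and the 4 groups did not overlap with each other. The log2 fold changes were -1.10 ± 0.10 (SE, adjusted p = 1.52e-05), -1.77 ± 0.09 (SE, adjusted p = 2.32e-11) and 0.79 ± 0.09 (SE, adjusted p = 6.88e-08). NDRG1, a stress-responsive gene widely used as a hypoxia marker, had 239, 291 and 288 CPM in control, 271, 314 and 215 CPM in iohexol, 90.4, 85.8 and 87.3 CPM in cisplatin and 588, 635 and 638 CPM in vancomycin samples. Iohexol samples lay on both sides of the controls, cisplatin samples were all lower (log2 fold change -1.64 ± 0.07 SE, adjusted p = 4.87e-12) and vancomycin samples all higher (log2 fold change 1.14 ± 0.09 SE, adjusted p = 1.47e-10).

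VEGFA (chr6:43770184-43786487), the angiogenic growth factor, had 97.5, 106 and 113 CPM in control, 154, 149.6 and 117 CPM in iohexol, 75.4, 75.6 and 79.3 CPM in cisplatin and 248, 271 and 276 CPM in vancomycin samples. Vancomycin samples were the highest, at 1.29 ± 0.09 (SE, adjusted p = 1.49e-11), and cisplatin samples the lowest, at -0.46 ± 0.07 (SE, adjusted p = 2.05e-05). The iohexol value of 0.43 ± 0.11 (SE, adjusted p = 0.0209) missed the threshold without control replicate 1 (0.37), control replicate 2 (0.41), iohexol replicate 1 (0.35) or iohexol replicate 2 (0.37). ADM, which encodes the vasodilator peptide adrenomedullin, was higher in all drug groups. It had 12.3, 16.8 and 17.1 CPM in control, 26.8, 24.7 and 21.3 CPM in iohexol, 33.1, 42.2 and 37.9 CPM in cisplatin and 76.2, 98.9 and 85 CPM in vancomycin samples, and each drug group stood above the controls. Its log2 fold changes were 0.67 ± 0.15 (SE, adjusted p = 0.00803), 1.29 ± 0.12 (SE, adjusted p = 8.61e-08) and 2.45 ± 0.13 (SE, adjusted p = 8.09e-14), from comparisons that share their control samples.

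**Figure D3:**
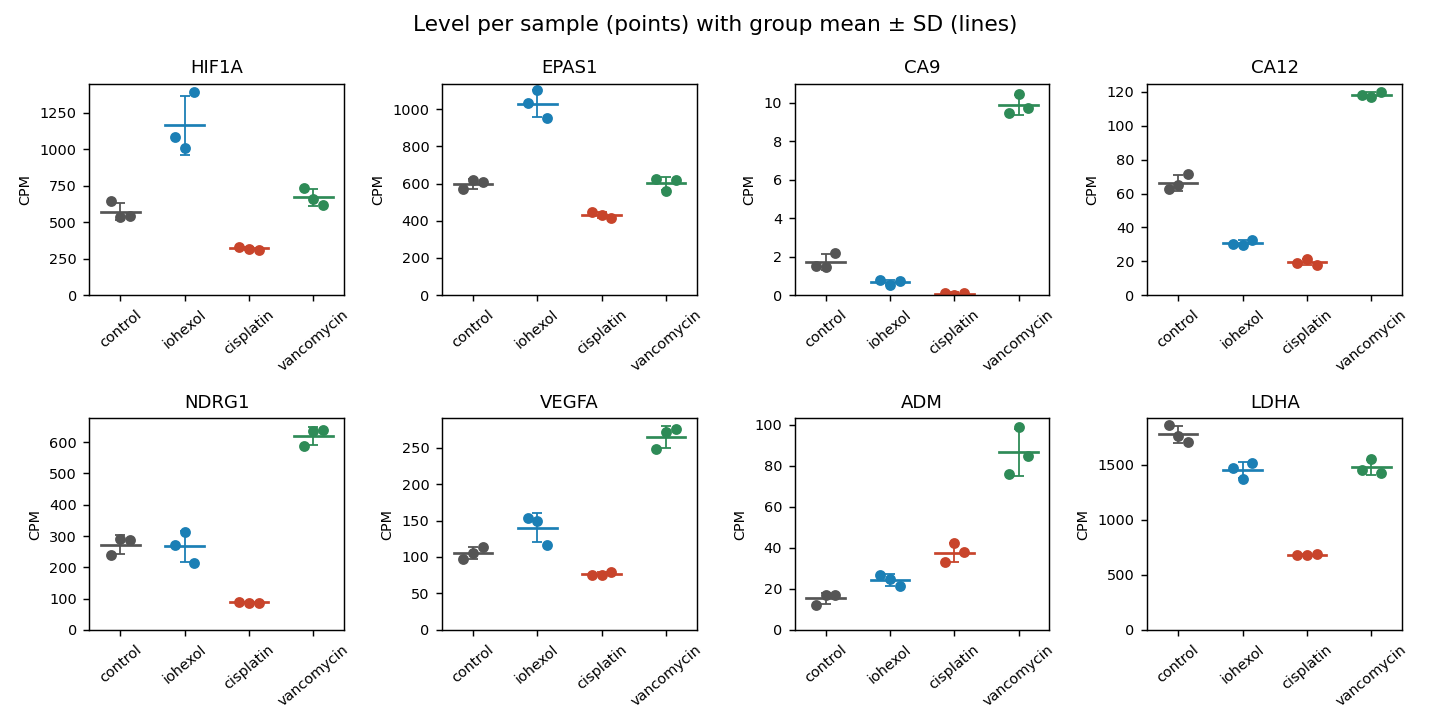
Level of 8 members in each sample (y axis, CPM on a linear scale from 0) by group; points are samples, horizontal lines the group mean and error bars the SD (n = 3). HIF1A and EPAS1 are highest in iohexol samples, CA9, CA12, NDRG1, VEGFA and ADM are highest in vancomycin samples, and all but ADM are lowest in cisplatin samples.

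BNIP3, the mitophagy receptor with 5 motif places in its promoter, had 321, 321 and 308 CPM in control, 259, 251 and 251 CPM in iohexol, 134, 139 and 132 CPM in cisplatin and 431, 489 and 439 CPM in vancomycin samples. It fell with cisplatin (log2 fold change -1.23 ± 0.06 SE, adjusted p = 8.55e-12) and rose with vancomycin (log2 fold change 0.47 ± 0.08 SE, adjusted p = 3.66e-05). The iohexol value of -0.30 (adjusted p = 0.0171) missed the threshold without control replicate 1 (-0.29), control replicate 2 (-0.31) or iohexol replicate 2 (-0.30). Its paralogue BNIP3L fell with cisplatin (log2 fold change -0.65, adjusted p = 5.94e-08) and with vancomycin (log2 fold change -0.26, adjusted p = 0.012), the latter no longer called without vancomycin replicate 3 (-0.22). P4HA1, a subunit of the collagen prolyl hydroxylase, had 209, 189 and 187 CPM in control, 134, 128 and 145 CPM in iohexol, 87, 85.3 and 87.5 CPM in cisplatin and 250.2, 271 and 215 CPM in vancomycin samples, with no overlap between control and any drug. It fell with iohexol (log2 fold change -0.50 ± 0.09 SE, adjusted p = 0.00195) and cisplatin (log2 fold change -1.17 ± 0.07 SE, adjusted p = 7.6e-11). With vancomycin it was 0.29 (adjusted p = 0.0109), a call lost without control replicate 2 (0.26), control replicate 3 (0.25) or vancomycin replicate 2 (0.22). ANKRD37, a small ankyrin repeat gene known to be hypoxia-induced, rose with cisplatin (log2 fold change 0.96, adjusted p = 2.7e-05) and vancomycin (log2 fold change 0.82, adjusted p = 0.000562), and its iohexol value of 0.55 (adjusted p = 0.0538) was called without iohexol replicate 3 (0.64). Of its exon bases 35.2% lie in UFSP2 on the opposite strand.

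The drugs were also compared with each other, in 1 fit of all 12 samples. Vancomycin against cisplatin gave the widest gap, with 30 members higher in vancomycin and 1 lower (SLC16A1), beside 34.7% and 30% of 17073 genes. The median difference over the members was 1.17 on the log2 scale, against 0.03 over all genes, and 23 members passed 1 upwards, beside 16.2% of all genes. NDRG1 (log2 fold change 2.82), ALDOA (log2 fold change 2.68) and CA12 (log2 fold change 2.60) differed most among the members over the floor in every sample. CA9 is counted among the 30 and the 23, and no count without it was made here. It lay under the floor in every cisplatin sample, with 4 counts in all of them together. Its vancomycin to cisplatin ratio of 123 had an exact 95% interval of 47.5 to 452 that covers counting error only. Vancomycin against iohexol gave 25 members higher and 7 lower, beside 29% and 27.6%, with a median of 0.66. The 25 include CA9, which held 30 counts over the iohexol samples. HIF1A (log2 fold change -0.80 ± 0.10 SE, adjusted p = 1.93e-06) and EPAS1 (log2 fold change -0.78 ± 0.07 SE, adjusted p = 2.7e-08) were both lower in vancomycin than in iohexol samples, and CA9 (log2 fold change 3.87), SLC2A3 (log2 fold change 2.13) and CA12 (log2 fold change 1.95) were higher. Cisplatin against iohexol gave 6 members higher and 26 lower, beside 26% and 27.9%, with a median of -0.64. CA9 is counted among the 26, with 4 counts over the cisplatin and 30 over the iohexol samples. No count without it was made for this comparison either. HIF1A (log2 fold change -1.86 ± 0.11 SE, adjusted p = 1.69e-11) and EPAS1 (log2 fold change -1.26 ± 0.08 SE, adjusted p = 2.9e-11) were again among the lower ones.

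Scaling by the total count alone put the median of all genes at -0.30 for vancomycin against cisplatin, -0.22 for vancomycin against iohexol and 0.13 for cisplatin against iohexol, from 0.03, -0.02 and 0.00478 with TMM factors. The members called then were 27 higher and 5 lower, 21 higher and 11 lower, and 7 higher and 26 lower. Of the called members 84.4% were then higher in vancomycin than in cisplatin, against 96.8% with TMM factors, and 65.6% higher in vancomycin than in iohexol, against 78.1%. Over all genes these shares went from 53.6% to 33.6%, from 51.3% to 34.4% and, for cisplatin against iohexol, from 48.2% to 58.8%.

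Pairs of related genes were set against each other within each sample, which takes the scaling of the library out. In 15 such comparisons, 5 pairs by 3 drugs, the smallest p that an exact two-sided permutation test of 3 against 3 samples allows is 0.1, and no adjusted p was under 0.167. The ratio of SLC16A3 to SLC16A1, the exporter against the two-way lactate carrier, had a log2 value of 0.33 ± 0.434 in control, -0.75 ± 0.106 in cisplatin and 1.86 ± 0.181 in vancomycin samples (SD, n = 3), and the 3 groups did not overlap. For LDHA to LDHB the iohexol and cisplatin samples lay below all controls, and the vancomycin samples overlapped with them (difference -0.02, exact permutation p = 0.8). The ratio of EPAS1 to HIF1A was 0.07 ± 0.214 in control and 0.42 ± 0.0113 in cisplatin samples, which were all higher, and the iohexol samples overlapped with the controls (difference -0.23, exact permutation p = 0.5). The ratio of EGLN3 to EGLN1 differed from control by 0.22 with iohexol, 0.09 with cisplatin and 0.12 with vancomycin, and only the cisplatin samples overlapped with the controls.

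**Figure D4:**
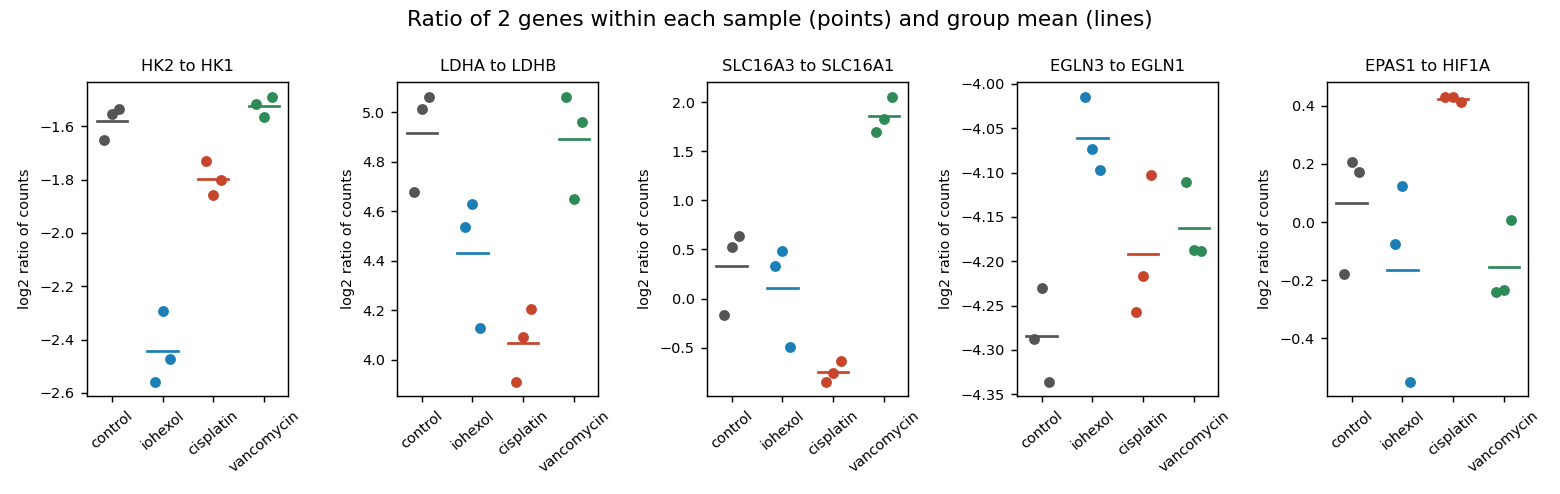
Log2 ratio of the counts of 2 related genes within each sample (y axis, a separate scale in each panel) by group; points are samples and lines group means (n = 3). The HK2 to HK1 ratio is lowest in the iohexol samples (mean -2.44) and the SLC16A3 to SLC16A1 ratio is highest in the vancomycin samples (mean 1.86).

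Further genes of the same pathways were taken as whole lists. Of 32 other HIF target genes, 6 of 31 tested rose and 9 fell with iohexol, 3 of 30 rose and 26 fell with cisplatin, and 18 of 31 rose and 5 fell with vancomycin, with medians of -0.09, -0.85 and 0.34 against 0.01, 0.01 and -0.01 over all genes. These counts and those of the lists that follow stand beside 11.2% of all genes called higher and 9.77% called lower with iohexol, 29.2% and 30.6% with cisplatin, and 29% and 28.8% with vancomycin. TMEM45A, a hypoxia-induced membrane protein gene, had 1.96, 1.00 and 1.78 CPM in control and 19.7, 21.4 and 18.5 CPM in vancomycin samples (log2 fold change 3.62 ± 0.20 SE, adjusted p = 2.08e-13). LOXL2, which crosslinks collagen, fell with cisplatin from 698, 834 and 852 CPM to 152, 154 and 160.5 CPM (log2 fold change -2.36 ± 0.07 SE, adjusted p = 7e-14). DDIT4, an inhibitor of mTOR signalling, fell with cisplatin (log2 fold change -1.99 ± 0.08 SE, adjusted p = 6.71e-13). Of the other HIF pathway machinery 11 genes were tested, and 0 rose and 1 fell with iohexol (RBX1), 2 rose and 3 fell with cisplatin, and 2 rose and 4 fell with vancomycin. Of these 11 genes 18.2% were called higher and 27.3% lower with cisplatin, and 18.2% higher and 36.4% lower with vancomycin. Differences from the shares of all genes were not tested. ELOB, a subunit of the ligase that degrades the alpha subunits, rose with vancomycin (log2 fold change 1.10, adjusted p = 8.83e-10) and the ligase scaffold CUL2 fell (log2 fold change -0.48, adjusted p = 0.000173).

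**Figure D5:**
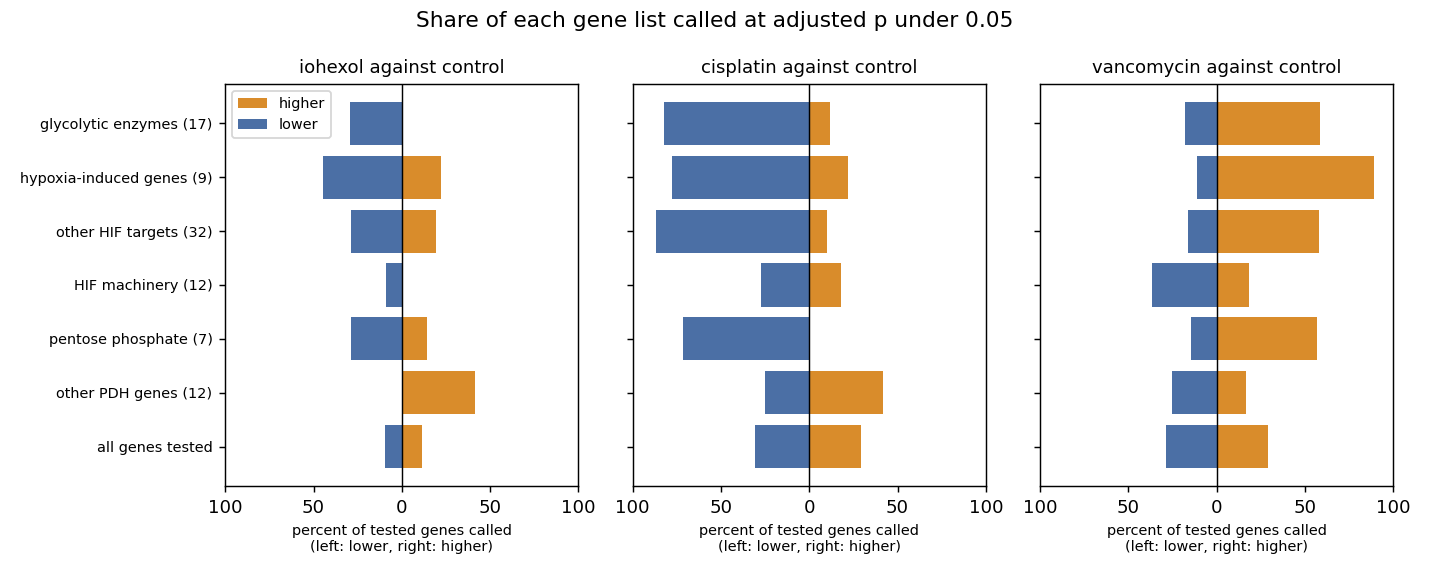
Percent of tested genes called at an adjusted p under 0.05 (x axis; higher to the right, lower to the left) in 6 gene lists and over all genes tested, for each drug against control; numbers in brackets give the length of a list. In the hypoxia-induced genes and the other HIF targets the bars lean left for cisplatin (77.8% and 86.7% lower, the first 75% without CA9) and right for vancomycin (88.9% and 58.1% higher).

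The lists of sugar metabolism next to glycolysis are short, and differences between them were not tested. Of 7 pentose phosphate genes, which supply NADPH and ribose, 1 rose and 2 fell with iohexol, 0 rose and 5 fell with cisplatin, and 4 rose and 1 fell with vancomycin. The transketolase TKT rose with vancomycin from 495, 566 and 561 CPM to 1605, 1615 and 1702 CPM (log2 fold change 1.56 ± 0.09 SE, adjusted p = 1.92e-13). Of 12 other genes of the pyruvate dehydrogenase step, 5 rose and 0 fell with iohexol, 5 rose and 3 fell with cisplatin, and 2 rose and 3 fell with vancomycin. PDK4, a kinase of the same family as PDK1 that is known to be induced by fasting, had 30.3, 22.7 and 23.5 CPM in control, 126, 109.8 and 176 CPM in iohexol, 98, 86.9 and 101 CPM in cisplatin and 84.9, 60.5 and 64.3 CPM in vancomycin samples. All drug samples were above the controls, at 2.44 ± 0.17 (SE, adjusted p = 2e-06), 1.90 ± 0.10 (SE, adjusted p = 4.08e-11) and 1.41 ± 0.13 (SE, adjusted p = 3.39e-09).

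Of 7 other glycolysis genes tested, 3 rose and 0 fell with iohexol, 2 rose and 1 fell with cisplatin, and 4 rose and 1 fell with vancomycin. PFKFB2, a relative of PFKFB3, rose from 30.6, 30.7 and 29.9 CPM to 64.5, 63.2 and 67.8 CPM with iohexol (log2 fold change 1.12 ± 0.09 SE, adjusted p = 7.01e-06) and to 74.3, 72.8 and 72.9 CPM with cisplatin (log2 fold change 1.27 ± 0.07 SE, adjusted p = 1.19e-10). ENO3, the muscle enolase, rose with iohexol (log2 fold change 1.11, adjusted p = 0.000182) and LDHC, the testis lactate dehydrogenase, fell with vancomycin (log2 fold change -1.69, adjusted p = 4.87e-05). Among other sugar and lactate transport genes, 3 of 11 rose and 1 fell with iohexol, 1 of 12 rose and 7 fell with cisplatin, and 3 of 12 rose and 1 fell with vancomycin. BSG, the chaperone that carries the lactate transporters to the membrane, rose with vancomycin (log2 fold change 0.74, adjusted p = 1.39e-07), and the lactate importer SLC16A7 rose with iohexol (log2 fold change 0.94, adjusted p = 0.000615) and fell with cisplatin (log2 fold change -0.71, adjusted p = 7.91e-06). Of the gluconeogenesis genes 1 of 5 rose with iohexol, 4 of 5 fell with cisplatin and 1 of 4 rose with vancomycin. PC, the pyruvate carboxylase, was the gene that rose, at 1.18 (adjusted p = 0.000134) with iohexol and 1.03 (adjusted p = 4.15e-07) with vancomycin, and it fell with cisplatin (log2 fold change -0.51, adjusted p = 0.00525). Of 7 glycogen genes 2 rose and 2 fell with iohexol, 1 rose and 4 fell with cisplatin, and 2 rose and 4 fell with vancomycin, where the branching enzyme GBE1, also a known HIF target, went from 69.3, 65.4 and 61.5 CPM to 31, 26.7 and 27.9 CPM with cisplatin (log2 fold change -1.20, adjusted p = 1.7e-09) and to 136, 143 and 125 CPM with vancomycin (log2 fold change 1.0, adjusted p = 2.16e-09).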

How the data were processed

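The authors deposited 1 table of counts, the whole reads assigned to each gene in each of the 12 samples, not normalized. The submitters' processing notes name CASAVA 1.8, fastp, HISAT2 2.0.5, featureCounts 1.5.0-p3 and DESeq2 1.20.0. The strand setting and annotation release are not given in the sources used here. Gene identifiers and exonic lengths in the table equalled those of a GENCODE annotation of GRCh38 for all 58735 genes.

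From these counts, genes were kept by edgeR's filterByExpr (minimum count 10, minimum total 15), scaled by TMM and tested by the quasi-likelihood method (edgeR 4.0.16, R 4.3.3), with 1 fit per drug against control and 1 fit of all 12 samples for drug against drug. The study's methods name limma, which stands here among the alternatives (limma 3.58.1, DESeq2 1.42.0). Genes were called at a Benjamini-Hochberg adjusted p under 0.05, and the study's threshold of a log2 fold change past 1 was a second rule. The standard error was computed from the test statistic. Log2 ratios within a sample used a prior of 0.5 counts and exact permutation tests. The scripts were tested on simulated data. Words of 31 bases, taken every 5 bases, were counted for sequence shared with other genes. Figures were drawn with matplotlib.

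Members given in most detail were those called past 1 with any drug, the 5 with the smallest p for each drug and the genes of the ratios, and the rest were described by role. Of each other list, genes were named from the 4 with the largest changes among those called whose samples did not overlap with the controls. Members and lists were chosen with earlier results of these data known. Alternatives were DESeq2, limma-voom, other scaling, other filters, all groups in 1 fit, a replicate block and leaving out each sample. Same-numbered samples did not deviate together, so the numbers were not taken to pair samples.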

Additional observations from a re-analysis of the deposited data

How the results depend on the processing

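No called member turned its direction under any alternative run. Over all of these, 27 to 29 members were lower with cisplatin and 19 to 25 higher with vancomycin. DESeq2 and limma-voom gave the same call as edgeR for each of the 38 members in each drug against control. In iohexol against control, the genes called lower over the whole table numbered 1529, against 2294 with all 4 groups in one fit, and leaving out 1 sample gave 1027 to 2377 genes higher (1754 with all samples), 822 to 2167 lower and 6 to 11 members lower. With iohexol replicate 3 left out and counts scaled by the total count alone, an alternative chosen after seeing the data, 8 members and 2974 genes were higher. With the total count alone, 11 members were lower in vancomycin than in iohexol, and 5 members and 7816 genes lower in vancomycin than in cisplatin; DESeq2 gave 2 members lower there, against 1. The causes were not tested.

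As a replicate block, the shared sample numbers lowered the iohexol counts to 3 members higher and 8 lower, with 915 genes lower in all, and gave 25 members higher and 7 lower with vancomycin and 5 and 29 with cisplatin. The correlations of same-numbered samples ran from -0.184 to 0.103, and 2 of the 12 samples correlated best with their own number.

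Depth limits CA9 in cisplatin samples and ALDOC, where the counts are few. With 3 samples a group, a member that did not pass the test is not shown to be unchanged. Each drug was given at 1 dose for 1 time.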
